A study of Rattus norvegicus with 12 samples.

Results

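The transcripts of 9 neuropeptide precursor genes were measured in the dorsal root ganglia of rats, where the sensory neurons of body wall and limbs have their cell bodies. The genes were Calca and Calcb (the calcitonin gene-related peptides, CGRP), Tac1 (substance P and neurokinin A), Adcyap1 (PACAP), Sst (somatostatin), Nppb (B-type natriuretic peptide), Npy (neuropeptide Y), Gal (galanin) and Vip (vasoactive intestinal peptide). They were taken by symbol, with no threshold on a value, and they are 9 of the 25252 genes in the deposited table. The choice of these genes and of the gene lists below was made with earlier results of these data known. Counts set beside the share over all genes are therefore descriptions. The ganglia came from 12 Sprague Dawley rats of genotype given as wild, 4 in each of 3 groups, and age and sex are not given in the labels used here. Rats of the vehicle group were given saline containing 1% DMSO and 0.1% Tween 20. Cisplatin rats had this platinum chemotherapy drug at 3 mg/kg by intraperitoneal injection on days 0, 7 and 14. The third group had the same cisplatin together with a daily injection of CYM-5478, which activates the S1P2 receptor for sphingosine 1-phosphate, between days -1 and 20. Its dose is 0.1 mg/kg in the sample labels but 1 mg/kg in the treatment protocol. CYM-5478 was not given alone in any group. Each library is 1 rat, and a whole ganglion mixes neurons with glia, blood and connective tissue.

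Neuropeptides are made as longer precursor proteins, cut by convertases and amidated inside dense-core vesicles, and released on stimulation from both the peripheral and the central ends of a sensory neuron. CGRP and substance P mark the peptidergic nociceptors, where they act in pain transmission, vessel dilation and neurogenic inflammation. PACAP is made by an overlapping set of small neurons, and somatostatin and B-type natriuretic peptide mark a small population of itch neurons in rodents. Galanin, neuropeptide Y and vasoactive intestinal peptide are low in uninjured sensory neurons and are known to rise after nerve section in the rat. Values are FPKM, fragment counts corrected for the length of the transcript and the size of the library. The FPKM of a gene is the sum of its transcripts, so levels of different genes are compared per length. Changes are differences of log2(FPKM + 0.5), which understate the change of low genes, tested by limma over the 16753 genes whose mean reached 0.5 FPKM. A gene was counted as changed when its Benjamini-Hochberg adjusted p was under 0.05.

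Calca, Tac1 and Adcyap1 were the genes among the 9 that passed the threshold in a comparison. Calca was lower in cisplatin than in vehicle ganglia, and all 3 were higher in ganglia of rats given CYM-5478 with cisplatin than in those given cisplatin alone. By size they were not apart from the rest. In the latter comparison the log2 change was 0.62 for Tac1, and 0.65 for Gal and 0.56 for Sst, which did not pass. With cisplatin, 1 of the 8 genes tested was lower (Calca) and 0 were higher, where 7.98% of all genes tested were lower and 2.73% higher, 10.7% in all; at an unadjusted p under 0.05 the count by limma was 3 of 8, and 4765 of all 16753 genes. The log2 change was below 0 in 7 of the 8, and its median was -0.33, against 0.02 over all genes tested. With CYM-5478 added, 3 of the 8 were higher and 0 lower than with cisplatin alone, where 4.53% of all genes were higher and 1.09% lower, 5.62% in all. The median log2 change of the 8 was 0.59, against -0.02 over all genes. A list of 18 genes made by neurons in general (pan-neuronal, below) had medians of -0.54 and 0.56 in these 2 comparisons. In whole ganglia fewer cells of a type and less RNA per cell cannot be told apart. Both comparisons use the same 4 cisplatin libraries, so they are not independent of each other. Between CYM-5478 with cisplatin and vehicle, 0 of the 8 genes and 0 of all genes passed (0% called), with 0 of the 8 and 970 of all genes at an unadjusted p under 0.05 by limma; the median log2 change of the 8 was 0.19. When each library was rescaled to the same sum (TPM), the median over all genes for cisplatin against vehicle moved from 0.02 to -0.09, and the share of called genes that were higher fell from 25.5% to 3.56%. For CYM-5478 with cisplatin against cisplatin that share went from 80.7% to 98.1%.

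**Figure D1:**
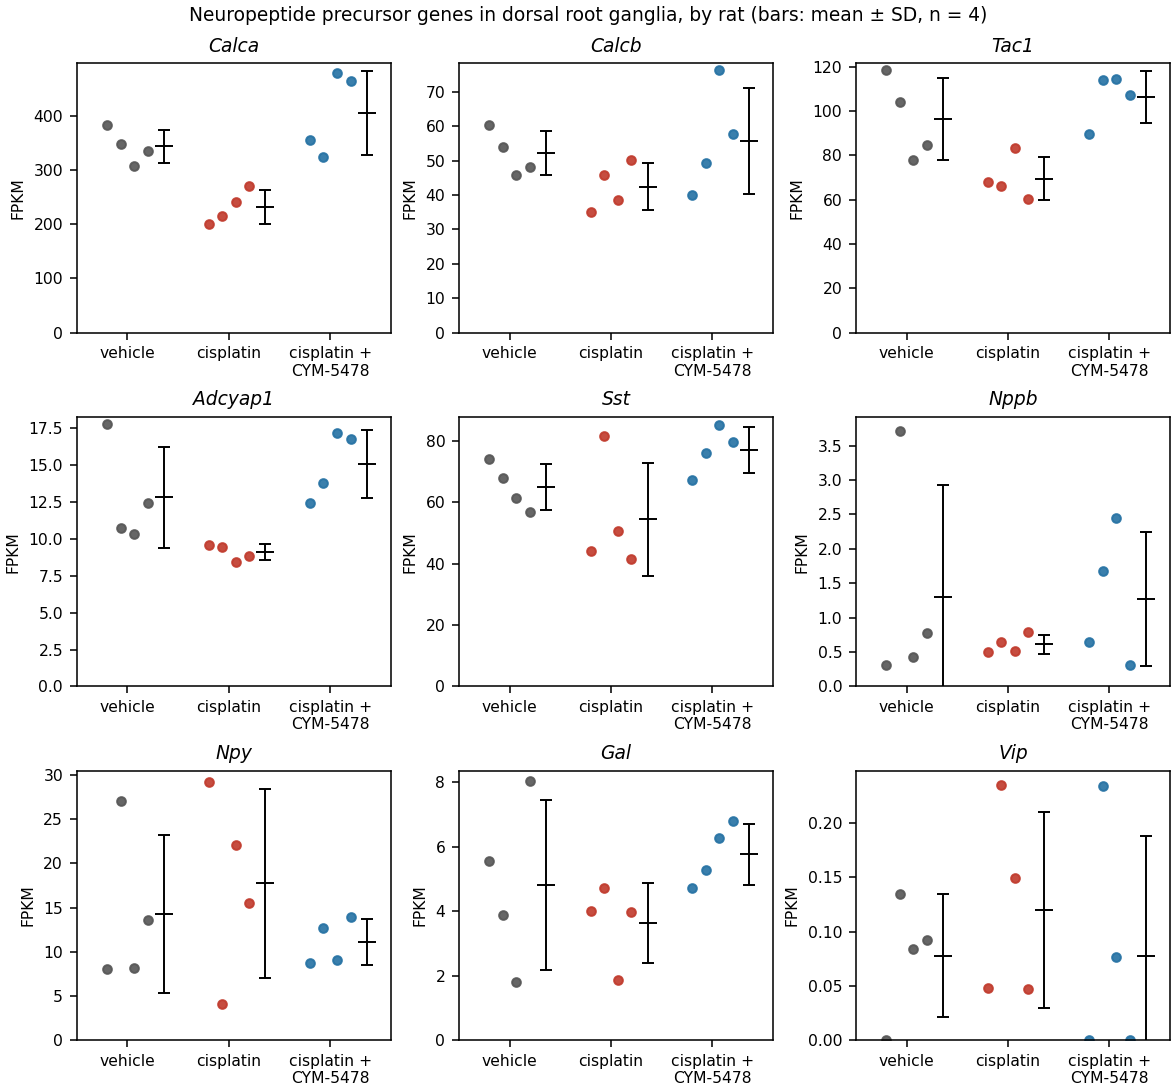
FPKM of the 9 neuropeptide genes, 1 panel per gene, with 1 point per rat and the mean ± SD of 4 rats beside each group (bars cut at 0 where they reach below it). The 4 cisplatin points lie below the 4 vehicle points for Calca and Adcyap1, and the 4 points with CYM-5478 lie above all 4 cisplatin points for Calca, Tac1 and Adcyap1.

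The levels spanned a wide range. Calca had the highest mean over the 12 libraries, 327 FPKM, rank 220 of all genes in the table. Tac1 followed at 90.7 FPKM, Sst at 65.6, Calcb at 50.1, Npy at 14.4, Adcyap1 at 12.3, Gal at 4.74, Nppb at 1.06 and Vip at 0.0918. Calca was above Tac1 in 12 of 12 libraries, and its lowest value (199 FPKM) was above the highest of Tac1 (119 FPKM). Tac1 was above Sst in 11 of 12 libraries and Sst above Calcb in 11 of 12, but the ranges of these neighbours overlapped. Npy was above Adcyap1 in 5 of 12 libraries, so their order by mean does not hold within libraries. Calca alone made up 58.3% ± 1.87 (SD, n = 4) of the summed FPKM of the 9 genes in vehicle ganglia, 53.8% ± 4.33 with cisplatin and 59.6% ± 3.64 with CYM-5478 and cisplatin. That sum was 590 ± 67.0 FPKM in vehicle, 429 ± 27.8 with cisplatin and 678 ± 106 with CYM-5478 and cisplatin. The lowest vehicle sum (514 FPKM) was above the highest cisplatin sum (451 FPKM).

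The promoters of the 3 genes that changed, and of Sst, are shown because the same short response elements are known to drive several neuropeptide genes; the windows run from 250 bases before to 50 bases after the start of the gene. They are RefSeq sequences of build GRCr8, which is not the build of the deposited values (Rnor_6.0), and 8 of the 9 genes were matched. Capitals mark the cyclic AMP response element TGACGTCA, its half-site TGACG, which reads as CGTCA on the other strand, and the TATA box TATAAA on the given strand.
Calca (chr1:178317480-178317779, minus strand): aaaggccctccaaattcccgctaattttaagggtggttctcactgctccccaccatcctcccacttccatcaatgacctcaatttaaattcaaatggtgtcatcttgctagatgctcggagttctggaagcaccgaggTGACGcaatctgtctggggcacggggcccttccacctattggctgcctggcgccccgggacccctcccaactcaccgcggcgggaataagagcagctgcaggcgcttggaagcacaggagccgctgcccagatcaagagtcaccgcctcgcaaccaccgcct
Tac1 (chr4:36645333-36645632, plus strand): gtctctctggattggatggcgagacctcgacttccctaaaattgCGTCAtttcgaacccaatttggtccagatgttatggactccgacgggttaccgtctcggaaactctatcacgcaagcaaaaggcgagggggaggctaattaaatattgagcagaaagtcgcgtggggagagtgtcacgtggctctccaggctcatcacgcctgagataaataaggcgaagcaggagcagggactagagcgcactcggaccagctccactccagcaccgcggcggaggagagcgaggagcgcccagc
Adcyap1 (chr9:120556424-120556723, minus strand): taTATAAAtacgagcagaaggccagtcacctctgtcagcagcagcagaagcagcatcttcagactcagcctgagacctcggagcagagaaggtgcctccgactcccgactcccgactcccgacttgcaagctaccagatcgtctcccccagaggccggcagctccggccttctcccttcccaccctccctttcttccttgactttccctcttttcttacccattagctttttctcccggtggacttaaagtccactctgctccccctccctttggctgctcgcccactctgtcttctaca
Sst (chr11:90461296-90461595, plus strand): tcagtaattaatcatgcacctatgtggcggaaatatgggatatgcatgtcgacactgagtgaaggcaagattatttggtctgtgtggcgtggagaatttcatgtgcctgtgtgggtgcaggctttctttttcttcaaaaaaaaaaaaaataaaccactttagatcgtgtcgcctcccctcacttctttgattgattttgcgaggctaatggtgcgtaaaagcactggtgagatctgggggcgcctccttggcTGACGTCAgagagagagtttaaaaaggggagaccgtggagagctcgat
The half-site was found, on either strand, in 5 of the 8 windows (Calca, Tac1, Sst, Gal and Vip), against 21.2% of the 33469 windows of the same length in the reference table. Relative to the gene start, it begins at position -112 in Calca, -63 in Gal and -97 in Vip, and its reverse form begins at position -206 in Tac1. The full element TGACGTCA was found in 1 window, that of Sst, against 1.83% of all windows, and it holds the half-site on both strands. It begins at position 3, after the annotated gene start. The AP-1 element TGACTCA, searched on both strands, was found in 0 of the 8 windows, against 4.63% of all. TATAAA was found in 3 of the 8 (Adcyap1, Gal and Vip), against 8.80% of all. In Adcyap1 it begins at position -248, far from the annotated start, and in Gal at -41. A match is a run of letters and not a measured binding site.

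Calca encodes alpha-CGRP and calcitonin. In the vehicle libraries its level was 382, 348, 308 and 335 FPKM in replicates 1 to 4. In the cisplatin libraries it was 199, 216, 240 and 270 FPKM, and with CYM-5478 and cisplatin 356, 323, 478 and 463 FPKM. All 4 cisplatin libraries were below all 8 others. Libraries that do not overlap in the lower direction were found for 11.5% of all genes tested in cisplatin against vehicle, and in the higher direction for 10.4% in CYM-5478 with cisplatin against cisplatin (5.68% in the lower). The group means were 343 ± 30.8, 231 ± 30.8 and 405 ± 77.3 FPKM (SD, n = 4). With cisplatin Calca was 0.67 times the vehicle level, a log2 change of -0.58 (SE 0.14, limma adjusted p = 0.0248). With CYM-5478 it was 1.75 times the level with cisplatin alone, a log2 change of 0.81 (SE 0.14, limma adjusted p = 0.0395). Against vehicle the log2 change with CYM-5478 and cisplatin was 0.23, with a 95% interval from -0.07 to 0.52 (limma adjusted p = 0.92). The fall with cisplatin did not pass the threshold without vehicle replicate 1 (adjusted p = 0.0536), vehicle replicate 2 (0.0779), cisplatin replicate 1 (0.0618) or cisplatin replicate 4 (0.0540), while its log2 change over all 28 alternatives ran from -0.70 to -0.39.

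A second transcript of Calca (ENSRNOT00000014948) was at most 0.302 FPKM, in cisplatin replicate 2, and at or below 1.24e-06 FPKM in the other libraries, so the values above are those of ENSRNOT00000055124. Calcb encodes beta-CGRP, a peptide close to alpha-CGRP, and the 2 genes are neighbours in RefSeq's GRCr8 annotation. Reads shared by such similar genes could be split between them by the counting, which is not described in the sources used here. Calcb was at 60.3, 53.9, 45.9 and 48.3 FPKM in vehicle replicates 1 to 4, at 34.9, 45.9, 38.6 and 50.1 with cisplatin, and at 40.0, 49.3, 76.3 and 57.7 with CYM-5478 and cisplatin. These ranges overlapped between all groups. The log2 change was -0.31 with cisplatin (95% interval -0.69 to 0.08, limma adjusted p = 0.28) and 0.38 with CYM-5478 against cisplatin (-0.01 to 0.76, limma adjusted p = 0.21). The ratio of Calca to Calcb was 6.61 ± 0.269 (SD, n = 4) in vehicle, 5.51 ± 0.637 with cisplatin and 7.44 ± 1.23 with CYM-5478 and cisplatin. Its vehicle values (6.34 to 6.94) did not overlap its cisplatin values (4.70 to 6.23), and the difference of the 2 genes' changes was not tested.

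**Figure D2:**
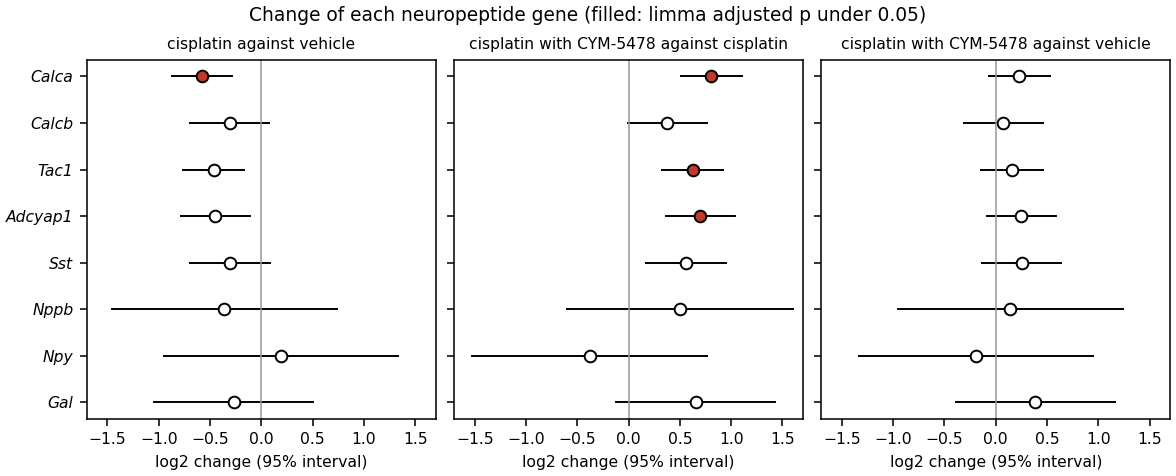
Log2 change of each of the 8 neuropeptide genes tested, with its 95% interval, in the 3 comparisons (1 panel each); filled points had a limma adjusted p under 0.05. Calca is filled in the left panel, Calca, Tac1 and Adcyap1 in the middle panel and no gene in the right panel, and the intervals of Npy, Gal and Nppb are the widest.

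Tac1 encodes the precursor of substance P and neurokinin A, the tachykinins of nociceptors. It was at 119, 104, 77.9 and 84.8 FPKM in vehicle replicates 1 to 4, at 68.1, 66.3, 83.4 and 60.3 with cisplatin, and at 89.6, 114, 115 and 107 with CYM-5478 and cisplatin. Cisplatin replicate 3 lay within the vehicle range, and all libraries with CYM-5478 lay above all cisplatin libraries. The group means were 96.4 ± 18.6, 69.5 ± 9.82 and 106 ± 11.7 FPKM (SD, n = 4). Against vehicle the log2 change with cisplatin was -0.46 (SE 0.14) and missed the threshold narrowly (limma adjusted p = 0.0510). With CYM-5478 the level was 1.54 times that with cisplatin alone, a log2 change of 0.62 (SE 0.14, limma adjusted p = 0.0395).

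The Tac1 FPKM were spread over 3 transcripts. ENSRNOT00000034719 held 60.1% ± 1.83 (SD, n = 4) of the FPKM of the gene in vehicle, 65.5% ± 2.79 with cisplatin and 61.4% ± 4.73 with CYM-5478 and cisplatin. ENSRNOT00000009888 held 34.4% ± 2.07, 27.7% ± 2.36 and 31.9% ± 4.49, and ENSRNOT00000052333 held 5.43% ± 1.03, 6.72% ± 1.02 and 6.69% ± 1.53. The share of ENSRNOT00000009888 was 6.69 percentage points lower with cisplatin than in vehicle, and lower in every cisplatin library than in every vehicle library. Its two-sided exact permutation p was 0.0286, which is the smallest possible with 4 against 4 libraries, and 0.257 after Benjamini-Hochberg adjustment over the 9 shares tested. None of the 9 passed the adjusted threshold. Taken alone, the most abundant transcript of Tac1 had a log2 change of 0.53 with CYM-5478 against cisplatin and did not pass the threshold (limma adjusted p = 0.0512).

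**Figure D3:**
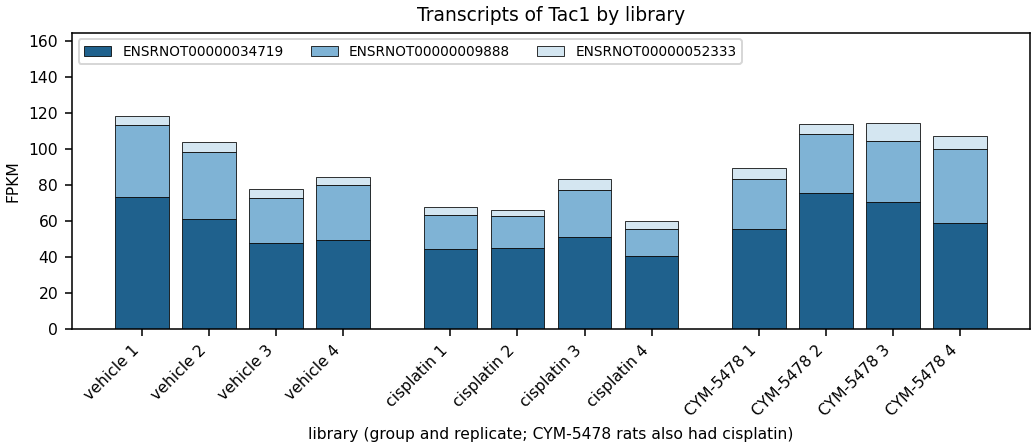
FPKM of the 3 transcripts of Tac1, stacked, in each of the 12 libraries. The bars of the 4 cisplatin libraries reach 60.3 to 83.4 FPKM and those with CYM-5478 reach 89.6 to 115 FPKM, and ENSRNOT00000034719 is the largest part in every library.

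Adcyap1 encodes PACAP, a peptide of small and injured sensory neurons that acts on the receptor Adcyap1r1. Its level was 17.8, 10.7, 10.3 and 12.4 FPKM in vehicle replicates 1 to 4, 9.61, 9.47, 8.43 and 8.85 with cisplatin, and 12.4, 13.8, 17.2 and 16.8 with CYM-5478 and cisplatin. The cisplatin libraries were the lowest 4 of the 12 and the closest together (9.09 ± 0.547 FPKM, SD, n = 4). The log2 change with cisplatin was -0.45 (SE 0.15) and did not pass the threshold (limma adjusted p = 0.0802). With CYM-5478 the level was 1.62 times that with cisplatin alone, a log2 change of 0.70 (SE 0.15, limma adjusted p = 0.0395). Vehicle replicate 1 was the highest of its group, and without it the log2 change with cisplatin was -0.29.

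The 3 rises with CYM-5478 depended on the libraries used. With 1 library left out, Calca, Tac1 and Adcyap1 kept log2 changes of 0.72 to 0.91, 0.56 to 0.72 and 0.63 to 0.78. None of the 3 passed the threshold without vehicle replicate 1 (limma adjusted p = 0.0535 for each) or CYM-5478 replicate 3 (0.126 for each). For Calca the adjusted p was 0.0891 without cisplatin replicate 1, 0.0916 without cisplatin replicate 4, 0.0882 without CYM-5478 replicate 2 and 0.0626 without CYM-5478 replicate 4. In the same order it was 0.0933, 0.0925, 0.0894 and 0.0635 for Tac1. For Adcyap1 it was 0.0891, 0.0919, 0.0882 and 0.0668. Over all genes, 0 passed in each of these 6 fits, against 941 with all libraries; without cisplatin replicate 4, for example, 3666 genes had an unadjusted p under 0.05. From the 8 libraries of those 2 groups alone the adjusted p was 0.0700 for each of the 3 genes.

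Sst and Nppb are the peptide genes of the itch neurons. Sst was at 74.1, 67.9, 61.3 and 56.9 FPKM in vehicle replicates 1 to 4, at 44.0, 81.7, 50.7 and 41.5 with cisplatin, and at 67.4, 76.3, 85.4 and 79.8 with CYM-5478 and cisplatin. Cisplatin replicate 2 was above all vehicle libraries, and the other 3 cisplatin libraries were below all of them. The log2 change was -0.31 with cisplatin (95% interval -0.69 to 0.08, limma adjusted p = 0.28) and 0.56 with CYM-5478 against cisplatin (0.17 to 0.95, limma adjusted p = 0.0804). Without cisplatin replicate 2, both passed the threshold, at log2 changes of -0.52 (limma adjusted p = 0.0215) and 0.77 (limma adjusted p = 0.0332). The Sst value of that library was not flagged by the outlier screen given near the end. Its skeletal muscle score was the highest of the cisplatin libraries (1.75). Cisplatin replicate 3 had the next highest (0.80), with Sst below all vehicle libraries. The part of tissue makeup in these Sst values was not tested. Nppb was low, at 0.309, 3.72, 0.428 and 0.772 FPKM in vehicle, 0.496, 0.647, 0.514 and 0.794 with cisplatin, and 0.641, 1.68, 2.45 and 0.312 with CYM-5478 and cisplatin. Its log2 change with cisplatin was -0.36, with a 95% interval from -1.46 to 0.74 (limma adjusted p = 0.68), and it turned to 0.16 without vehicle replicate 2.

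Npy and Gal encode peptides known as markers of injured sensory neurons in rats, and neither passed the threshold in any comparison. Npy was at 8.09, 27.1, 8.19 and 13.6 FPKM in vehicle replicates 1 to 4, at 29.2, 4.14, 22.1 and 15.5 with cisplatin, and at 8.78, 12.6, 9.10 and 14.0 with CYM-5478 and cisplatin. It varied more within the vehicle and cisplatin groups than between them, with a log2 change of 0.19 with cisplatin (95% interval -0.95 to 1.33, limma adjusted p = 0.84). As a ratio, that interval runs from 0.517 to 2.52 times the vehicle level. Gal was at 5.54, 3.87, 1.79 and 8.04 FPKM in vehicle, 4.00, 4.72, 1.86 and 3.98 with cisplatin, and 4.70, 5.29, 6.26 and 6.81 with CYM-5478 and cisplatin. Its vehicle libraries covered the values of both other groups. Against cisplatin its log2 change with CYM-5478 was 0.65 (95% interval -0.12 to 1.43, limma adjusted p = 0.28). The libraries of these 2 groups touched as deposited and were apart by a small margin after scaling. Vip, a peptide of injured sensory and of autonomic neurons, did not pass the filter and was not tested. It was listed at 0 in 3 libraries and was at most 0.235 FPKM, in cisplatin replicate 2. Between CYM-5478 with cisplatin and vehicle (non-overlap in 3.45% of all genes tested, 1.69% higher and 1.76% lower) the libraries of all 8 genes tested overlapped, with log2 changes from -0.19 (Npy) to 0.38 (Gal) and limma adjusted p from 0.92 to 0.99.

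The genes varied together to differing degrees over the 12 libraries, given here as a description since the libraries share groups and tissue makeup. Pearson's r of log2(FPKM + 0.5) was 0.80 for Calca with Calcb and 0.80 with the group means removed. For Calca with Adcyap1 it was 0.86, and 0.53 with the group means removed. For Calca with Tac1 it was 0.80, and 0.31 with the group means removed, so most of that likeness lay between groups. Npy had a negative correlation with Sst (r = -0.60). The genes with the pattern most like Calca were Steap3 (r = 0.95), Stk32c (0.94) and Capn1 (0.93). For Tac1 they were Apeh (r = 0.96), Zdhhc24 (0.95) and Samm50 (0.93). For Calcb they were Otulin (r = 0.94), Adcy3 (0.93) and Plin2 (0.93). For Adcyap1 they were Josd1 (r = 0.92), Cdkl4 (0.92) and Slc8a2 (0.91), and for Sst Gpr162 (r = 0.94), Mmp25 (0.90) and Lpin1 (0.90). For Gal they were Ncbp1 (r = 0.94), Hormad2 (0.90) and Hgf (0.86), for Npy Eftud1 (r = 0.86), Gmpr2 (0.86) and Itpkc (0.84), and for Nppb Slc4a1ap (r = 0.90), Cdc34 (0.89) and Psd3 (0.87).

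Ramp1, part of the CGRP receptor, was higher where Calca was lower. The receptor is made of Calcrl with its partner Ramp1, and Calcrl with Ramp2 or Ramp3 binds adrenomedullin. Ramp1 was at 34.5, 32.7, 26.5 and 32.4 FPKM in vehicle replicates 1 to 4, at 47.8, 47.4, 43.5 and 45.7 with cisplatin, and at 33.1, 33.4, 31.7 and 32.9 with CYM-5478 and cisplatin. All 4 cisplatin libraries were above all 8 others. Over all genes tested, libraries were apart in the higher direction for 6.81% with cisplatin against vehicle. With CYM-5478 against cisplatin they were apart in the lower direction for 5.68%. The log2 change of Ramp1 was 0.54 with cisplatin (SE 0.07, limma adjusted p = 0.0167) and -0.47 with CYM-5478 against cisplatin (SE 0.07, limma adjusted p = 0.0395). Calcrl, named after its values were seen, had group means of 23.6 ± 4.89, 32.6 ± 4.35 and 22.9 ± 4.40 FPKM (SD, n = 4) in vehicle, with cisplatin, and with CYM-5478 and cisplatin. Neither of its changes passed the threshold (log2 0.47, limma adjusted p = 0.0844, and log2 -0.50, limma adjusted p = 0.0863). Ramp3 had group means of 26.8 ± 3.32, 36.0 ± 6.97 and 24.9 ± 2.00 FPKM. Its log2 change of 0.40 with cisplatin did not pass (limma adjusted p = 0.0700), and that of -0.49 with CYM-5478 against cisplatin did (limma adjusted p = 0.0487; 0.0658 with TPM). Ramp2 had the highest mean of the receptor list, 43.4 FPKM. Calcrl and the Ramp genes are also known from blood vessels, so the cells in which they changed cannot be told from whole ganglia.

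**Figure D4:**
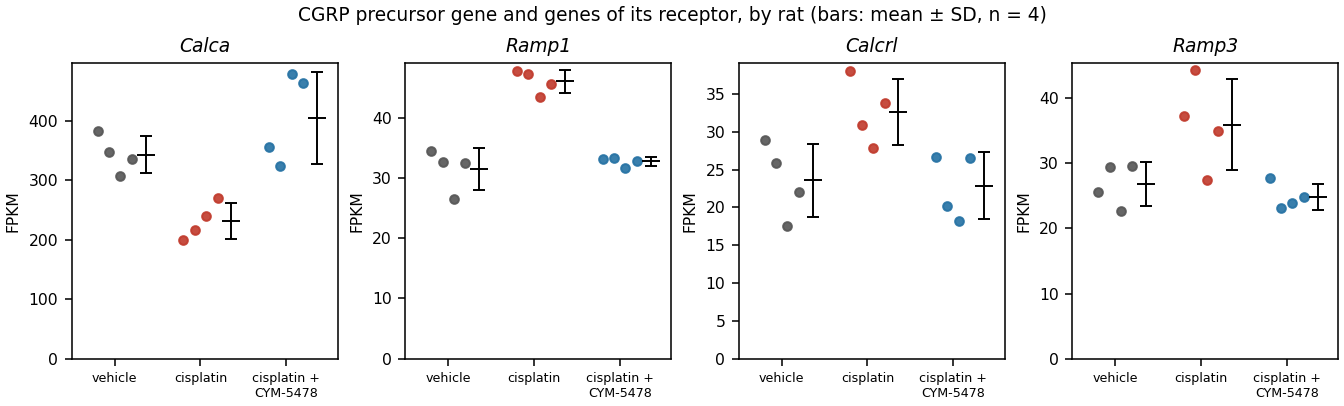
FPKM of Calca and of the receptor genes Ramp1, Calcrl and Ramp3 in each rat, with the mean ± SD of 4 rats beside each group. The 4 cisplatin points are the lowest for Calca and the highest for Ramp1 (43.5 to 47.8 FPKM, against 26.5 to 34.5 in the other 8 rats).

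Of the 29 receptor genes listed, 28 were in the table and 17 were tested. With cisplatin 1 was higher (Ramp1) and 1 lower, the galanin receptor Galr1, which went from 4.54 ± 0.381 to 2.35 ± 0.191 FPKM (SD, n = 4; log2 change -0.83, limma adjusted p = 0.0224). With CYM-5478 against cisplatin 1 was higher, the neuropeptide Y receptor Npy1r, from 7.76 ± 0.536 to 10.5 ± 0.456 FPKM (log2 change 0.43, limma adjusted p = 0.0395), and 2 were lower (Ramp1 and Ramp3). The median log2 changes of the 17 were 0.04 and -0.01. Of all genes tested, 10.7% were called with cisplatin and 5.62% with CYM-5478 against cisplatin. The substance P receptor Tacr1 did not pass the filter.

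Among other neuropeptide precursors, 2 were higher with cisplatin and 1 with CYM-5478 against cisplatin, and 0 were lower in either. Of all genes tested, 10.7% were called with cisplatin (2.73% higher) and 5.62% with CYM-5478 against cisplatin (4.53% higher). Of 41 precursors listed, 38 were in the table and 22 were tested, and their median log2 change was 0.02 with cisplatin and 0.09 with CYM-5478 against cisplatin. Nmb (neuromedin B) and Edn3 (endothelin 3) had the highest means, 31.5 and 10.0 FPKM, and neither changed by the test. Cck (cholecystokinin) went from 1.65 ± 0.743 to 2.96 ± 0.211 FPKM (SD, n = 4) with cisplatin, a log2 change of 0.74 (limma adjusted p = 0.0364). It stayed at 2.92 ± 0.517 FPKM with CYM-5478 and cisplatin, a log2 change of -0.02 against cisplatin (limma adjusted p = 0.97). In the 4 vehicle libraries Prok2 (prokineticin 2) was listed at 0. It was at 1.53, 0.993, 0.519 and 1.37 FPKM with cisplatin, and was listed at 0 in 2 of the 4 libraries with CYM-5478 (limma adjusted p = 0.0415 for cisplatin against vehicle). Prok2 thus passed the filter of 0.5 FPKM only through the groups given cisplatin, so its call rests in part on how it was selected. Nppa (atrial natriuretic peptide) went from 1.48 ± 0.487 with cisplatin to 3.59 ± 1.11 FPKM with CYM-5478, a log2 change of 1.04 (limma adjusted p = 0.0395). The libraries of these groups overlapped, and the vehicle level of Nppa, 1.58 ± 0.423 FPKM, was near that with cisplatin.

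Several genes of peptide storage and release were lower with cisplatin, while most processing enzymes did not pass the threshold. Of 28 genes of peptide processing and dense-core vesicles, 12 were lower and 0 higher, where 7.98% of all genes tested were lower and 2.73% higher. The median log2 change of the 28 was -0.45, and 20 of the 28 were below 0. The 6 of smallest p were the vesicle membrane proteins Ptprn2 (log2 change -0.78) and Ptprn (-0.58), the convertase chaperone Scg5 (-0.53), the calcium channel subunit Cacna2d1 (-0.47), the vesicle priming factor Cadps (-0.69) and the calcium sensor Syt4 (-0.59). Ptprn2 fell from 7.13 ± 0.498 to 3.97 ± 0.437 FPKM (SD, n = 4; limma adjusted p = 0.0148). With CYM-5478 against cisplatin 8 of the 28 were higher and 0 lower, where 4.53% of all genes were higher and 1.09% lower. The median of the 28 was 0.43. Those of smallest p were Ptprn2 (log2 change 0.77), Cacna2d1 (0.51), Syt4 (0.70), Ptprn (0.64), the granin Scg2 (0.73) and Scg5 (0.52), each at a limma adjusted p of 0.0395. Pam, the enzyme that amidates CGRP and substance P, had the highest mean of the list, 141 FPKM, and did not pass the threshold in either comparison. Rab3a, a vesicle release GTPase, was next at 138 FPKM. With cisplatin the log2 change of Pam was 0.20, and all its cisplatin libraries lay above all vehicle libraries. Over all genes tested 6.81% did so. Among the convertases Pcsk2 was lower with cisplatin (-0.62), while Furin (0.05), Pcsk5 (0.15) and Pcsk6 (0.17) did not pass. Of 11 peptidases, which break released peptides down or mature them, 1 changed in each comparison: Ece2 was lower with cisplatin (log2 change -0.26, limma adjusted p = 0.0371) and higher with CYM-5478 against cisplatin (0.31, limma adjusted p = 0.0395). The share called over all genes tested was 10.7% and 5.62% in the same order. The score of the 11 peptidases, the average of their log2 differences to vehicle, went the other way from Ece2 with CYM-5478. It was 0.02 to 0.10 in the cisplatin libraries and -0.26 to -0.0070 in those with CYM-5478 and cisplatin (two-sided exact permutation p = 0.0286, unadjusted).

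**Figure D5:**
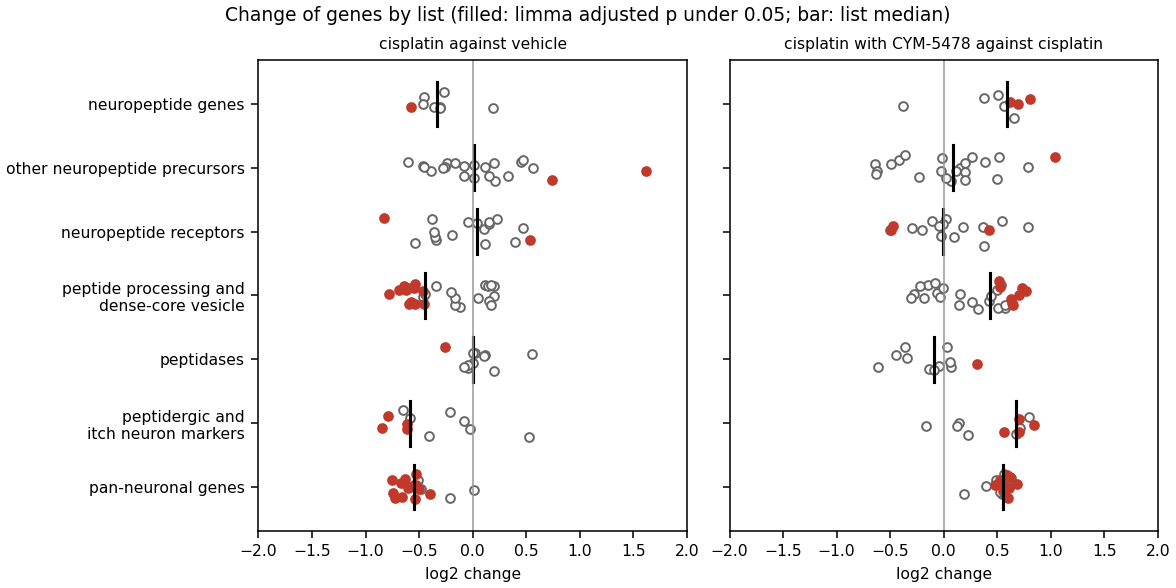
Log2 change of each gene tested, by list, with cisplatin against vehicle (left) and with CYM-5478 and cisplatin against cisplatin (right); filled points had a limma adjusted p under 0.05 and bars mark list medians. The neuropeptide genes (medians -0.33 and 0.59) lie near the vesicle genes (-0.45 and 0.43) and the pan-neuronal genes (-0.54 and 0.56), while the medians of receptors, peptidases and other precursors are between -0.09 and 0.09.

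Some markers of the neurons that make these peptides changed in the same comparisons. Over all genes tested, 7.98% were lower and 2.73% higher with cisplatin. With CYM-5478 against cisplatin 4.53% were higher and 1.09% lower. Of 11 markers of peptidergic and itch neurons tested, 4 were lower with cisplatin, among them the channels Trpa1 (log2 change -0.62, limma adjusted p = 0.0170) and Trpm8 (-0.79), and Gfra3 (-0.61), the artemin receptor. With CYM-5478 against cisplatin 4 were higher, among them Trpa1 (0.70), Gfra3 (0.84) and the capsaicin receptor Trpv1 (0.56). Of 11 markers of non-peptidergic neurons, 1 was lower with cisplatin, the growth factor receptor Ret (-0.49), and 2 were higher with CYM-5478, Ret (0.49) and Plxnc1 (0.53). Of 9 markers of large-diameter neurons, 4 were lower with cisplatin and 3 higher with CYM-5478 against cisplatin. The mean score with cisplatin was -0.41 ± 0.27 (SD, n = 4) for the large-diameter list, -0.39 ± 0.13 for the peptidergic and itch list and -0.28 ± 0.14 for the non-peptidergic list, and differences between these lists were not tested. The markers of all neurons moved too: 14 of 18 pan-neuronal genes were lower with cisplatin and 9 of 18 higher with CYM-5478 against cisplatin, with 0 in the other direction in each. Their score, the average of their log2 differences to vehicle, was -0.53 ± 0.26 (SD, n = 4) with cisplatin (two-sided exact permutation p = 0.0286, again the lowest value possible) and 0.01 ± 0.18 with CYM-5478 and cisplatin. The summed FPKM of the 18 genes ran from 4461 to 5757 in vehicle, 2735 to 4082 with cisplatin and 4282 to 5745 with CYM-5478 and cisplatin. The score ran from -0.90 to -0.34 in the cisplatin libraries, -0.10 to 0.21 in vehicle and -0.18 to 0.23 with CYM-5478 and cisplatin. It thus separates the cisplatin libraries from all others. The covariate fit that follows therefore cannot tell the score from the treatment, and the part of the score in the changes of the neuropeptide genes was not tested.

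With this score added to the model as a covariate, Calca had a log2 change of -0.39 with cisplatin (limma adjusted p = 0.656) and 0.61 with CYM-5478 against cisplatin (limma adjusted p = 0.992). Tac1 had -0.20 and 0.36, and Adcyap1 -0.45 and 0.70. In those fits 0 genes passed by limma in either comparison, with 1426 and 805 at an unadjusted p under 0.05. Pearson's r of the score with the level over the 12 libraries was 0.79 for Calca, 0.80 for Tac1, 0.75 for Sst, 0.73 for Calcb and 0.63 for Adcyap1. With the group means removed it was 0.35, 0.46, 0.60, 0.59 and -0.0037 in the same order. Before that removal it was -0.27 for Npy, 0.27 for Gal and 0.56 for Nppb.

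The called genes of the nerve injury response went in 1 direction in each comparison, but the list as a whole was mixed. Of its 19 genes, 11 had a log2 change below 0 with cisplatin and 9 with CYM-5478 against cisplatin. The medians were -0.09 and 0.11. These counts took no account of which way each gene is known to move after nerve injury, so they do not measure an injury response. Atf3 and Jun each had a log2 change of 0.23 with cisplatin and did not pass the threshold. Of 19 tested, 4 were lower with cisplatin (Nefl, a neurofilament subunit, log2 change -0.89; the heat shock protein Hspb1, -0.50; Cacna2d1, as above; and the cytokine receptor Lifr, -0.29) and 0 were higher, where 7.98% of all genes tested were lower and 2.73% higher. With CYM-5478 against cisplatin 4 were higher, Cacna2d1, Tubb2b (0.54), Lifr (0.33) and Hspb1 (0.47), and 0 were lower, where 4.53% of all genes were higher and 1.09% lower. Sympathetic neurons, another known source of Npy and Gal, were checked by 13 markers, of which 6 were tested and 0 passed by limma in any comparison (3, 2 and 1 at an unadjusted p under 0.05, against 4765, 4122 and 970 of all 16753 genes). Their summed FPKM was 76.2 to 92.8 in vehicle, 84.1 to 106 with cisplatin and 63.9 to 93.9 with CYM-5478 and cisplatin. Most of that sum was Maob alone, with group means of 72.0, 83.3 and 64.5 FPKM, so it says little of the other markers. With cisplatin 2 of the 6 had a log2 change below 0. The largest change was the fall of Ddc (log2 change -0.65, limma adjusted p = 0.113), and Slc18a2 was at -0.24 (limma adjusted p = 0.168). The largest rise was that of Slc6a2 (log2 change 0.55), which missed the threshold narrowly (limma adjusted p = 0.0512). The sympathetic regulator Phox2a was listed at 0 in all 12 libraries, and Th and Dbh had means of 0.254 and 0.474 FPKM. The 12 sensory neuron markers were all tested, with Nefl (1155 FPKM) and Nefh (600 FPKM) highest, and 10 were lower with cisplatin and 5 higher with CYM-5478 against cisplatin. Of the 20 genes past the threshold with cisplatin that the naming rule took, Calca included, 0 passed it without vehicle replicate 2 or without cisplatin replicate 4, 9 passed without cisplatin replicate 1, and 14 or more passed without any other library. Of the 23 it took for CYM-5478 against cisplatin, 0 passed without vehicle replicate 1, cisplatin replicate 1 or 4, or CYM-5478 replicate 2, 3 or 4, and 16 or more passed without any other library.

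Per library, the sum of all FPKM was 592845 to 675894, highest in the 4 cisplatin libraries, and scaling factors were 0.998 to 1.012. Steps between low values put the depth of CYM-5478 replicate 2 at 1.5 times that of vehicle replicate 1 and the others at 0.9 to 1.2 times. Absolute depth is unknown. The skeletal muscle score ran from -0.44 to 1.75 in the cisplatin libraries and the neutrophil score from -1.51 to 1.82 in those with CYM-5478. The cisplatin libraries with the highest muscle scores were replicates 2 and 3, and those with CYM-5478 at the ends of the neutrophil range were replicates 2 and 3. Without both of these cisplatin libraries Calca had a log2 change of -0.57 with cisplatin (limma adjusted p = 0.0764), and without both of these CYM-5478 libraries it had 0.83 with CYM-5478 against cisplatin (limma adjusted p = 0.349).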

How the data were processed

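Ribosomal RNA was depleted from total RNA of the ganglia and directional libraries were made, per the labels' protocols. The authors deposited FPKM per transcript. The submitters' processing notes list, without roles, STAR 2.7.8a, Bowtie2 2.0.6, DESeq2, FastQC, bcl2fastq 2.20 and build Rnor_6.0. The program that gave the FPKM is not given in the sources used here. The table held 30275 transcripts.

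FPKM were summed by gene. Libraries were scaled by the median ratio over genes of mean 1 FPKM or more, and genes of scaled mean 0.5 FPKM or more were tested. Limma 3.58.1 (R 4.3.3) fitted log2(FPKM + 0.5) of 3 groups in 12 libraries (9 residual degrees of freedom, variance trend). All 9 members were named. From each list came the called genes, at most 6 of smallest p per comparison, and up to 2 of highest mean; pan-neuronal and sympathetic lists are given mainly by counts. The 3 most correlated genes of each member, LOC and clone names aside, were named too. The members and lists were chosen with earlier results of these data known. Of 286 listed symbols, 274 matched by symbol and 1 by synonym. Shares and scores were compared by two-sided exact permutation (SciPy 1.17.1). Replicate numbers are those of the sample descriptions. Nothing in the labels says that rats with the same number belong together. Some genes that the rule took are not reported here.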

Additional observations from a re-analysis of the deposited data

Results flagged for a closer look

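Nppb had 1 vehicle library far from the other 3. Vehicle replicate 2 was at 3.72 FPKM, and the nearest of the others was at 0.772 FPKM. The gap was 0.864 of the whole range of the group, above Dixon's 95% critical value for 4 samples. Of the 36 groups of 4 screened this way, 1 was past that value, and chance gives about 1 in 20.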

How the results depend on the processing

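Over 66 changes of single genes and their 1843 values under alternatives, 1376 kept direction and call, 426 kept direction and lost the call, 17 gained one and 24 changed sign; the cause was not tested unless the setting itself gives it. For cisplatin against vehicle the genes called ranged from 0 to 1846 with 1 library left out, and the neuropeptide genes called from 0 to 2; for CYM-5478 with cisplatin against cisplatin from 0 to 1088 and 0 to 4; against vehicle the genes called from 0 to 2. Log2 changes with a change of sign in these fits ranged from -0.14 to 0.75 (Npy), -0.63 to 0.16 (Nppb) and -0.62 to 0.012 (Gal) for cisplatin against vehicle, and from -0.39 to 0.17 (Npy), -0.16 to 0.67 (Nppb) and -0.094 to 0.22 (Calcb) for CYM-5478 with cisplatin against vehicle.

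For cisplatin against vehicle, TPM gave 3287 genes and 3 neuropeptide genes, the 2 FPKM filter 2 neuropeptide genes, array weights 2, and the 8 libraries of the groups alone 961 genes. For CYM-5478 with cisplatin against cisplatin, TPM gave 2578 genes, array weights 452, no filter 2 genes and 0 neuropeptide genes, and the 8 libraries alone 0 and 0; against vehicle, the 8 libraries gave 1 gene. With a covariate for the pan-neuronal score, 0 genes and 0 neuropeptide genes were called in either of the first 2 comparisons. The log2 changes that turned were those of Calcb (0.13), Npy (-0.28), Sst (0.14), Nppb (0.92) and Lifr (0.0032) with cisplatin, and of Calcb (-0.069), Npy (0.10) and Nppb (-0.79) with CYM-5478 against cisplatin. Without CYM-5478 replicates 2 and 3 together, 0 genes and 0 neuropeptide genes were called against cisplatin (Nppb -0.20) and 1 gene against vehicle (Calcb -0.11, Nppb -0.56).

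With the replicate number of the descriptions as a replicate block, 1881, 1304 and 0 genes and 1, 3 and 0 neuropeptide genes were called in the 3 comparisons. With the title number as the replicate block it was 0 genes and 0 neuropeptide genes in each, and Nppb had a log2 change of 0.46 with cisplatin. Libraries of the same description number had correlations of their deviations from -0.243 to 0.154, and those of the same title number from -0.108 to 0.142. These values cannot show whether rats of 1 number shared a batch, which the labels do not state. Depth in reads is unknown, which limits what can be said of Vip and Nppb.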
